A study of Mus musculus with 38 samples.

Results

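Cultured mouse EpdSCs (epidermal stem cells) were made to express a SOX9 protein without its transactivation domain (ΔTA-SOX9). Their H3K4me1 list held 16536 domains that were absent from the other 3 culture lists used here. They were the domains of the ΔTA-SOX9 list that shared not even 1 bp with a domain of the other 3 culture lists, and made up 13.4% of the 123338 domains of that list. The other lists came from cells with full-length SOX9 (WT), cells with SOX9 without its HMG domain (ΔHMG-SOX9) and WT-line cells that received no DOX. Together the 4 lists held 466295 domains. These ΔTA-only domains were rich in the AP1 binding word, which lay in 25.5% of them against 8.13% of windows 5 kb away, and were not rich in SOX words, which lay in 52.2% of them against 54.9% of windows 5 kb away.

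H3K4me1 is a histone mark of enhancers, both poised and active, and H3K27ac marks those that are active. SOX9 is a transcription factor of hair follicle stem cells. Its HMG domain binds DNA and its transactivation domain contacts co-activators and the enzymes that modify chromatin. AP1 is a dimer of FOS and JUN family proteins. It is a major factor at enhancers of epidermal keratinocytes and responds to growth factors, wounding and stress.

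The mark was profiled by MINT-ChIP, in which chromatin is cut with MNase, barcoded by sample and precipitated in a pool. The cultured cells were *Krt14-rtTA* EpdSCs (the labels give the genotype as K14rtTA with a TRE-driven MYC-tagged SOX9 variant), transduced with lentivirus and selected with puromycin, and DOX switched the variant on. In skin, EpdSCs were sorted from male *Krt14-rtTA;TRE-Sox9* mice, in which the keratin 14 promoter drives the transactivator that turns on MYC-SOX9 when DOX is given from postnatal day 21. The skin lists cover D0, W1, W2, W6 and W12 of induction, and the W12 skin came from grafts on immunocompromised mice.

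Each condition had 1 pooled list, so no value below has a replicate and no difference between conditions was tested. Intervals are exact 95% Clopper-Pearson intervals for shares and 95% Newcombe intervals for differences, and both cover counting error over domains only. The depth of the culture libraries is unknown. At a −log10 p close to 4 the median fold was 3.22 in the list without DOX, 3.13 for WT, 3.24 for ΔHMG-SOX9 and 3.21 for ΔTA-SOX9, so a given p corresponded to a similar fold in the 4 lists. The ΔTA-SOX9 list was the longest, 1.06 times as long as the WT list and 1.12 times as long as the list without DOX. The barcode table of the culture libraries names 6 conditions, of which 4 had a list here. The ΔTA line without DOX was not analysed here, so properties of that transduced line and effects of the induced protein cannot be told apart.

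The sequences below show the strongest ΔTA-only domains by their deposited fold, a linear ratio given for each domain. Each is the central 300 bp on the plus strand of GRCm38, in lower case. Capitals mark the AP1 word TGACTCA, the SOX word ACAATG and the second SOX word ACAAAG, each on either strand. No AP1 match overlaps a SOX match in the sequences shown. The first 2 hold ranks 2 and 3 by fold and were chosen by that rank, whether or not they carry the AP1 word.
chr4:65140135-65140434: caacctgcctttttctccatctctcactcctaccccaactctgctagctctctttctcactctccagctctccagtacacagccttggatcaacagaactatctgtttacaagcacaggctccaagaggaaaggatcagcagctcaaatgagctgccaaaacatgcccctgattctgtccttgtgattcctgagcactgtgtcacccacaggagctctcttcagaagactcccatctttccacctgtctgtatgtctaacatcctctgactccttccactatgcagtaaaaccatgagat
chr3:25946239-25946538: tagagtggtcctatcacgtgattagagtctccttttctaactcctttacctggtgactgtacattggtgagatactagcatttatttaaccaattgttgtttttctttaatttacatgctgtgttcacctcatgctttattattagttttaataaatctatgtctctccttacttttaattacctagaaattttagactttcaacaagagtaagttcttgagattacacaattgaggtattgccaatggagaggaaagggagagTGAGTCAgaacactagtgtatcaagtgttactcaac
The chromosome 4 domain, with a fold of 8.55, lay in an intron of *Pappa*, a protease of insulin-like growth factor binding proteins, and holds neither word here. The chromosome 3 domain, with a fold of 8.43, lay in an intron of *Nlgn1*, a synaptic adhesion protein, and the stretch shown holds 1 AP1 word near its right end.

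The next 3 are the strongest ΔTA-only domains with an AP1 and a SOX word in the central 300 bp. They are shown so that the spacing of both words in single domains can be read beside the median distances given below.
chr6:88174698-88174997: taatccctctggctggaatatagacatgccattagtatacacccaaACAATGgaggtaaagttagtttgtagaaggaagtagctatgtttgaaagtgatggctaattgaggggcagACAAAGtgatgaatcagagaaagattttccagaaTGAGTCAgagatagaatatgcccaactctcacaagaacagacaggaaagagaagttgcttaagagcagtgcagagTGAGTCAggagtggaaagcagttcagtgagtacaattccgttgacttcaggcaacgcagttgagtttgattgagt
chr19:35024882-35025181: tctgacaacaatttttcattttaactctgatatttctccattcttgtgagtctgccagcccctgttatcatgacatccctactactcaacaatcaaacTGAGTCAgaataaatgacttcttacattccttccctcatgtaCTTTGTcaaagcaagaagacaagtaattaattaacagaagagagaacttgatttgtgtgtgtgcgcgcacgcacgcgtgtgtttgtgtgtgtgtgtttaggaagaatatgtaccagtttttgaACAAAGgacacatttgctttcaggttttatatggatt
chr14:21315976-21316275: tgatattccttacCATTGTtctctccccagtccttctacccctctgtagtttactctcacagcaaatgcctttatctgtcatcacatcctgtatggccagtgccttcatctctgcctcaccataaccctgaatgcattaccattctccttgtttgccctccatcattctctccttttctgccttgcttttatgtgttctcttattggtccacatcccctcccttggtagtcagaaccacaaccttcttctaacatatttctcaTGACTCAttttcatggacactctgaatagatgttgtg
The chromosome 6 domain, with a fold of 7.25, holds 2 AP1 words and 2 SOX words, and the nearest pair of an AP1 and a SOX word is centred 34.5 bp apart. In the chromosome 19 domain, with a fold of 6.98, the nearest such pair is 41.5 bp apart. In the chromosome 14 domain, with a fold of 6.79, the 2 words lie 250.5 bp apart, close to the ends of the stretch.

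Of the words searched for, the AP1 word gave the largest difference between the ΔTA-only domains and the windows around them. It lay in the central 500 bp of 4221 of the 16536 domains, or 25.5% (24.9 to 26.2). The share was 8.13% in windows of the same size 5 kb to either side of these domains, a difference of 17.4 percentage points (16.7 to 18.1), and 7.67% in all 500 bp tiles of the genome. Among the 23939 domains found only with WT SOX9 the share was 10.4%, and the difference from the ΔTA-only domains was 15.2 points (14.4 to 15.9). It was 16.8% among the 7292 ΔHMG-only domains and 15.0% among the 6780 domains found only without DOX, lower than in the ΔTA-only domains by 8.69 points (7.59 to 9.76) and 10.5 points (9.44 to 11.6). The ΔTA-only share was above each of these 3 sets on all 20 chromosomes with at least 50 domains in both sets.

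A control word with the same letters in another order, ACTGATC, lay in 4.13% of the ΔTA-only windows, 4.07% of the windows 5 kb away and 3.98% of the WT-only windows. For this word ΔTA-only minus WT-only was 0.149 points (-0.239 to 0.545). More than 1 AP1 word lay in 2.67% of the ΔTA-only windows, against 0.505% of the WT-only windows and 1.28% of the ΔHMG-only windows.

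**Figure D1:**
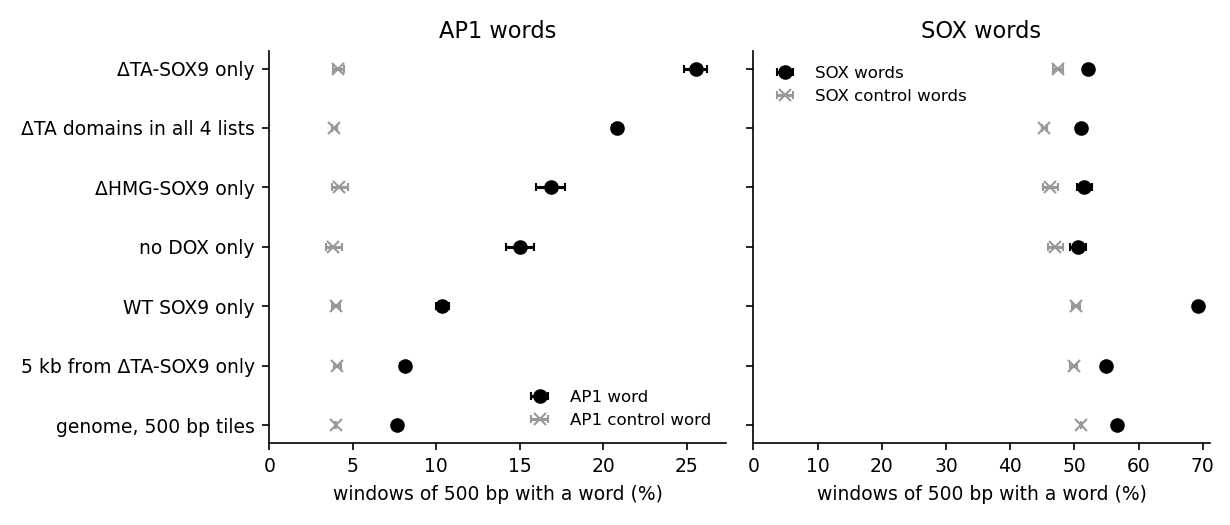
Share of 500 bp windows with an AP1 word (left) or a SOX word (right), in percent, for domains of each set, for windows 5 kb from the ΔTA-only domains and for all tiles of the genome. Black points are the words, grey crosses are control words of the same letters, and bars are exact 95% intervals. Of the sets shown, the AP1 share was highest in the ΔTA-only domains, at 25.5%, and the SOX share was highest in the WT-only domains, at 69.2%.

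The AP1 words sat at the middle of the domains. In the central 200 bp of the ΔTA-only domains there were 0.649 AP1 words per kb, against 0.180 per kb beyond 2000 bp from the centre, a ratio of 3.604. The same ratio was 2.39 in ΔHMG-only domains, 2.01 in domains found only without DOX and 1.296 in WT-only domains. SOX words were denser at the centre in the WT-only domains alone of the 4 sets, at 1.46 times the density beyond 2000 bp. The ratio was 0.892 in the ΔTA-only domains, 0.907 in the ΔHMG-only domains and 0.869 in domains found only without DOX.

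**Figure D2:**
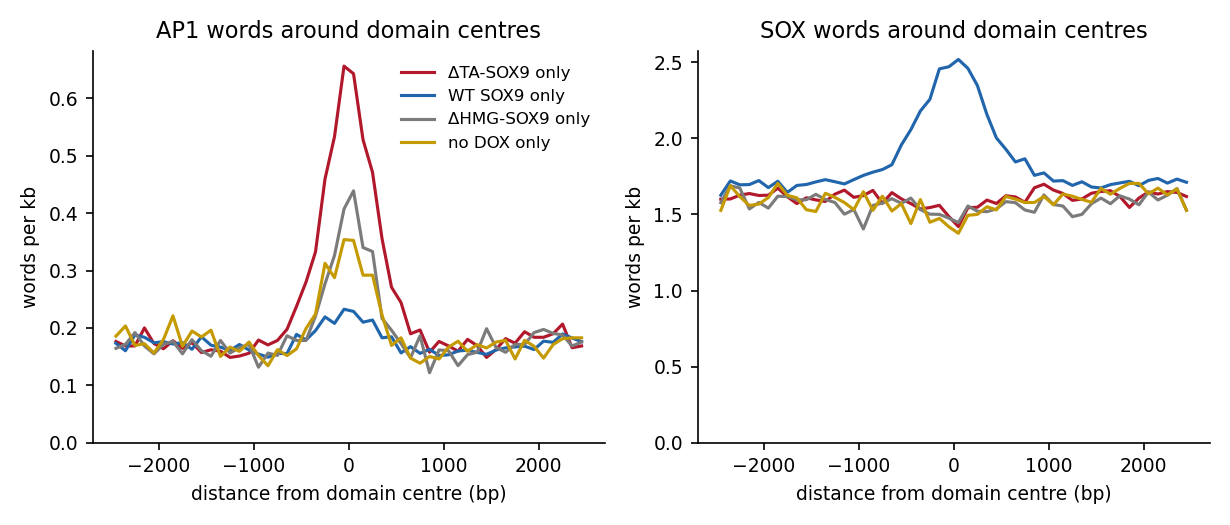
Density of AP1 words (left) and SOX words (right) per kb, in bins of 100 bp, against the distance from the domain centre in bp, for the domains that each culture list holds alone. AP1 words rose to a peak at the centre of the ΔTA-only domains, and SOX words rose at the centre of the WT-only domains only.

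Within the ΔTA-only domains the AP1 share went up with fold. It was 21.2% (19.8 to 22.6) in the lowest quintile of fold, below 2.75, and then 22.9%, 25.4% and 27.4%. It was 30.8% (29.2 to 32.4) in the highest quintile, above 3.82. In WT-only domains with the same limits of fold the share stayed between 9.23% and 10.8%. The rise was not particular to the ΔTA-only domains. From the lowest to the highest quintile the share went from 14.6% to 19.1% in ΔHMG-only and from 13.0% to 18.2% in no-DOX-only domains. In the ΔTA-SOX9 domains in all 4 lists it went from 15.1% to 25.1%. In the central 500 bp the ΔTA-only domains stood above each of these sets at every level of fold. The sets differ in width. Over whole domains of any fold the AP1 share was 25.9% for ΔTA-only, 14.7% for WT-only, 14.8% for ΔHMG-only and 13.6% for no-DOX-only domains. The SOX share of the ΔTA-only domains did not move with fold and lay between 51.5% and 52.6% in the 5 quintiles, whereas in WT-only domains it went from 63.2% to 73.0%.

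**Figure D3:**
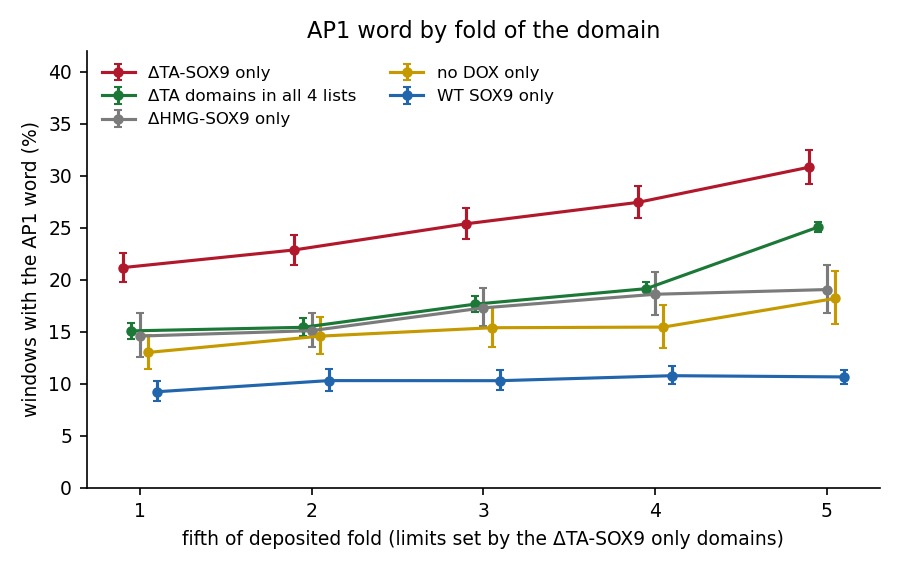
Share of domains with an AP1 word in the central 500 bp, in percent, by quintile of deposited fold, with limits set by the ΔTA-only domains and exact 95% intervals as bars. The ΔTA-only share ran from 21.2% to 30.8% and was above that of the other sets in each quintile.

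SOX words, the sequence that the HMG domain binds, were not enriched in the ΔTA-only domains. Either SOX word lay in 8630 of them, or 52.2% (51.4 to 53.0), and the difference from the windows 5 kb away was -2.71 points (-3.64 to -1.78). The WT-only domains had a SOX word in 69.2%, and the ΔTA-only share minus this was -17.1 points (-18.0 to -16.1). Against the ΔHMG-only domains, at 51.5%, the difference was 0.681 points (-0.695 to 2.06), an interval that includes 0. The ΔTA-only share was 1.66 points (0.246 to 3.07) above that of the domains found only without DOX and 1.20 points (0.359 to 2.05) above that of the ΔTA-SOX9 domains in all 4 lists. Over whole domains the SOX share was 51.4% for ΔTA-only, 73.4% for WT-only, 45.0% for ΔHMG-only and 45.0% for no-DOX-only domains. Their median widths were 428, 630, 335 and 347 bp in this order, and a longer stretch holds a word more easily. Control words of the same letters, AGATAC and AGCAAA, lay in 47.5% of the ΔTA-only windows, 49.9% of the windows 5 kb away and 50.3% of the WT-only windows. For these control words ΔTA-only minus the windows 5 kb away was -2.44 points (-3.38 to -1.51), close to the difference of the SOX words.

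The words were found together no more often than their separate shares give. Of the ΔTA-only windows with an AP1 word, 51.9% (50.3 to 53.4) had a SOX word, and of those without an AP1 word, 52.3% (51.4 to 53.2) did. Both words lay in 13.2% of the windows, against 13.3% as the product of the 2 shares. The median distance between an AP1 and a SOX word was 117.5 bp in the ΔTA-only domains and 81.5 bp in the WT-only domains. It was 108.5 bp in the ΔHMG-only and 116 bp in the no-DOX-only domains.

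Base composition differed between the sets and was therefore held within limits. The mean GC content of the central 500 bp was 45.6% ± 5.32 (SD over 16536 domains) in ΔTA-only domains, 43.8% in WT-only domains and 43.4% in the windows 5 kb away. In windows of at most 44.2% GC the AP1 share was 26.9% for ΔTA-only and 11.0% for WT-only domains, and in those above 49.2% GC it was 22.3% and 8.41%. The SOX share at most 44.2% GC was 59.3% for ΔTA-only and 73.8% for WT-only domains.

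Words of other factor families gave smaller differences. The TEAD word GGAATG, bound by the partners of YAP, lay in 30.3% of the ΔTA-only windows and 25.1% of the windows 5 kb away. It lay in 29.9% of the WT-only windows too, a difference of 0.339 points (-0.568 to 1.25). The ETS word CCGGAA lay in 5.13% of ΔTA-only windows against 4.32% 5 kb away, and the KLF word GGGTGG in 29.6% against 27.7%. The RUNX word TGTGGTT lay in 11.99% against 11.88%. The GATA word AGATAA lay in 25.9% against 27.5% and the FOX word TGTTTAC in 6.25% against 7.02%, both below the windows nearby.

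The AP1 share was not particular to the domains that the ΔTA-SOX9 list held alone. Among all ΔTA-SOX9 domains it followed absence from the WT list. It was 26.3% in the 41838 domains with no WT overlap and 20.6% in the 81500 domains with one, a difference of 5.69 points (5.19 to 6.20). The 8186 domains that only the ΔTA-SOX9 and ΔHMG-SOX9 lists shared had the word in 26.7%, and the 13146 domains in every list but WT had it in 27.9%; ΔTA-only minus the latter was -2.36 points (-3.38 to -1.35). The 3126 domains that only ΔTA-SOX9 and WT shared had it in 20.03%, and the 71174 domains in all 4 lists in 20.8%. SOX words lay in 60.01% of the domains shared by ΔTA-SOX9 and WT alone, and ΔTA-only minus these was -7.82 points (-9.69 to -5.94).

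The ΔTA-only domains were weak and narrow. They were chosen by the calls of the same lists that give fold, width and q, so these values are a description and support nothing. Their median fold was 3.16 (quartiles 2.82 and 3.66, range 1.72 to 9.17), against 3.71 for ΔTA-SOX9 domains in all 4 lists. Their median width was 428 bp (range 235 to 3526) against 1172 bp. The median q, the p-value adjusted by the caller, was 0.00406, and 10592 of them (64.1%) had a q of at most 0.01. Of the domains, 484 were in the top 10% of the ΔTA-SOX9 list by fold, and the strongest stood at rank 179. The other lists had weak domains of their own as well: the median fold was 3.41 for the WT-only, 3.12 for the ΔHMG-only and 3.05 for the no-DOX-only domains. As shares of their own lists these were 20.6%, 6.27% and 6.13%.

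**Figure D4:**
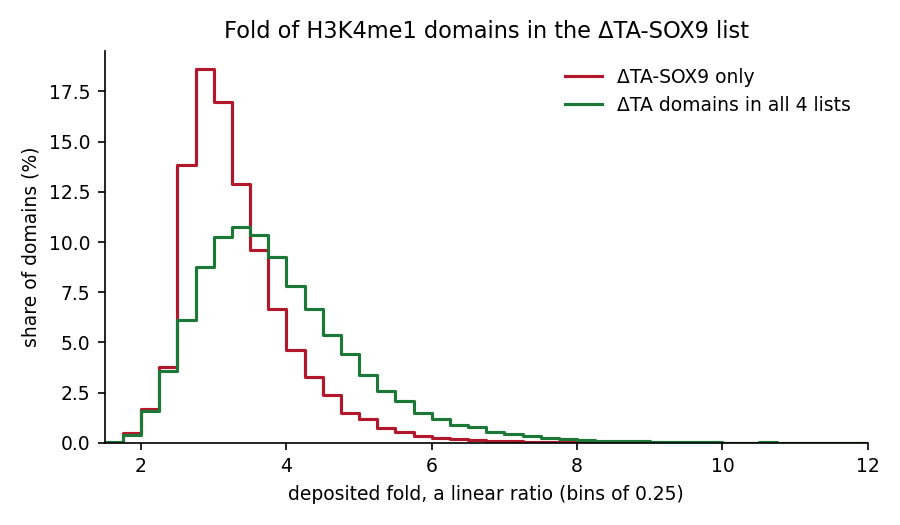
Distribution of the deposited fold in bins of 0.25, as a share of domains in percent, for the 16536 ΔTA-only domains and for the 71174 ΔTA-SOX9 domains found in all 4 lists; the horizontal axis ends at 12. The ΔTA-only domains peak at a lower fold, with a median of 3.16 against 3.71.

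Few domains sat at the edge of the rule. The median distance to the nearest domain of another list was 4145 bp (quartiles 1847 and 9916), and 1378 domains (8.33%) had one within 1000 bp. Just inside the rule were 24 ΔTA-only domains with a gap of at most 10 bp, with a median fold of 2.80 and a median width of 404.5 bp. Just outside it were 28 ΔTA-SOX9 domains that overlapped another list by at most 10 bp, with a median fold of 2.68 and a median width of 393 bp. Only 194 (1.17%) lay within 1000 bp of another ΔTA-SOX9 domain that was shared. The 7242 domains with no other list within 5000 bp had the AP1 word in 29.3% (28.3 to 30.4), and the 1378 with one within 1000 bp in 19.5% (17.5 to 21.7).

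The domains were distal. Of them, 88.2% (87.7 to 88.7) lay more than 2500 bp from any annotated start site, against 71.1% of the ΔTA-SOX9 domains in all 4 lists and 88.3% of the WT-only domains. The median distance to a start site was 16614.5 bp for the ΔTA-only domains and 8736 bp for the shared domains. By place, 5.99% came within 1 kb of a start site, 9.17% touched an exon, 42.6% lay in an intron and 42.3% lay between genes. For the shared domains these shares were 19.6%, 11.6%, 39.9% and 28.9%. The domains were found on all chromosomes, with between 11.1% (chromosome 19) and 17.3% (chromosome 14) of the ΔTA-SOX9 domains of each autosome, and 16.4% on the X chromosome.

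The 12 strongest ΔTA-only domains had folds from 7.79 to 9.17, and 8 of them were narrower than 420 bp. In 3 of the 12, over 50% of the central 500 bp is repeat-masked in the reference. None overlapped H3K27ac of skin, 7 lay between genes and 5 in introns. The AP1 word lay in 3 of the 12 and a SOX word in 8. The domain at chr14:103536271-103536543, with a fold of 8.03, lay in an intron of *Scel*, a protein of the cornified envelope, and was the only one of the 12 on H3K4me1 of skin at every time point. The domain at chr4:87589967-87590771, with a fold of 8.04, overlapped skin H3K4me1 at D0 only. The domain at chr12:42692400-42692687, with a fold of 8.32, lay 341494 bp from the nearest start site and had both words. The domain at chr2:73518334-73518740, with a fold of 7.79, lay in an intron of *Wipf1*, a regulator of actin assembly, and had neither.

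The widest domains were not the strong ones. The 5 widest spanned 3129 to 3526 bp with folds from 3.05 to 3.49. Of these, the domain at chr10:120187940-120191068, in an intron of *Irak3*, a brake on Toll-like receptor signalling, overlapped H3K4me1 and H3K27ac of skin at all 5 time points. The widest, at chr18:14541451-14544976, lay between genes and overlapped neither mark at any time.

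Most of these domains had no H3K4me1 counterpart in skin. Of the 16536 domains, 5815 (35.2%, 34.4 to 35.9) overlapped a skin H3K4me1 interval at any time point and 1580 (9.55%) at every time point. Among the ΔTA-SOX9 domains in all 4 lists, 85.5% overlapped skin at any time. The overlap was highest before SOX9 was induced, at 23.9% at D0, and then 16.7% (W1), 19.6% (W2), 20.2% (W6) and 20.9% (W12). The D0 list covered 11.4% of the genome and the later lists from 9.67% (W1) to 10.8% (W2), so the overlap was above the covered share at each time, and the D0 list was also the widest. A peak at D0 was not particular to the ΔTA-only domains. The ΔHMG-only domains had 32.8% at D0 and 22.9% to 24.4% later. The no-DOX-only domains had 43.9% at D0 and 33.5% to 37.5% later.

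The WT-only domains had another order over the same lists. At D0 they overlapped skin in 24.3%, and the ΔTA-only share differed from this by -0.441 points (-1.29 to 0.408). At W2 they overlapped in 33.1%, and ΔTA-only minus WT-only was -13.5 points (-14.4 to -12.7). At W12 they overlapped in 24.9%, with a difference of -4.01 points (-4.83 to -3.18). The ΔTA-only domains also overlapped less than the ΔHMG-only domains, with a difference of -8.93 points at D0 (-10.2 to -7.68) and -1.96 points at W12 (-3.11 to -0.819). Against the no-DOX-only domains the difference was -19.98 points at D0 (-21.3 to -18.6) and -13.2 points at W12 (-14.5 to -11.9). Since wider domains overlap more easily, the midpoint alone was also placed: it lay in a skin interval for 22.3% of the ΔTA-only and 21.9% of the WT-only domains at D0, and for 18.2% and 31.6% at W2.

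**Figure D5:**
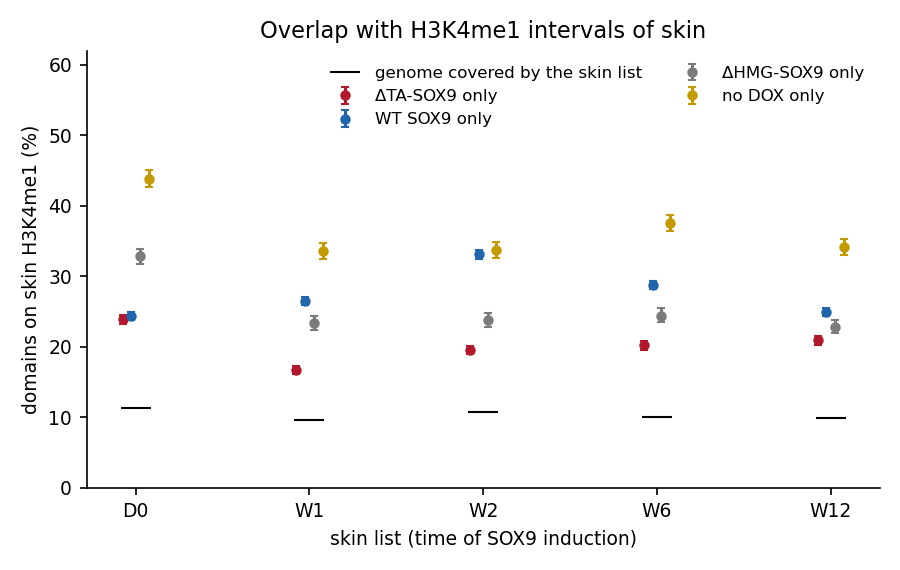
Share of the domains that each culture list holds alone, in percent, that overlapped H3K4me1 of skin by at least 1 bp at each time of SOX9 induction, with exact 95% intervals; black dashes give the share of the genome that the skin list covers. The ΔTA-only domains had 23.9% at D0 and 16.7% to 20.9% later, while the WT-only domains went from 24.3% at D0 to 33.1% at W2. The ΔHMG-only and no-DOX-only domains were also highest at D0, at 32.8% and 43.9%.

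The AP1 word was most frequent in the domains absent from skin. It lay in 27.9% (27.1 to 28.8) of the 10721 ΔTA-only domains with no skin overlap at any time and in 19.6% (18.4 to 20.9) of the 3950 that overlapped skin at D0. The median folds of these domains were 3.23 and 3.01. The SOX words lay in 52.9% and 50.5%.

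Domains that skin gained with SOX9 were rare among the ΔTA-only domains. Only 232 (1.40%, 1.23 to 1.59) overlapped skin H3K4me1 at W2, W6 and W12 and not at D0, against 1161 (4.85%, 4.58 to 5.13) of the WT-only domains. The share was 2.26% among all ΔTA-SOX9 domains. It was lower still in the ΔHMG-only domains, at 0.891%, and the no-DOX-only domains, at 1.09%, so a low share was not particular to the ΔTA-only domains. The strongest of the 232, at chr3:122191027-122191265, had a fold of 5.79 and lay in an intron of *Gm43158*. The second, at chr11:53004481-53005204, had a fold of 5.58 and lay in an intron of *Fstl4*, a follistatin-like protein. The third, at chr10:87787523-87787834, had a fold of 5.46 and lay between genes, 70430 bp from the start of *Igf1*, a growth factor. The next 2 lay in an intron of *Extl3*, an enzyme of heparan sulfate synthesis, and within 1 kb of a start site of *Gm2448*, with folds of 5.07 and 4.97. Of these 5 domains, 1 had the AP1 word and 2 had a SOX word.

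H3K27ac was seen at few of the domains. The overlap with skin H3K27ac peaks was between 1.49% (W6) and 1.87% (W12) at each of the 5 time points, and 4.88% (4.56 to 5.22) at any time. These peaks covered between 0.847% and 1.18% of the genome. Of the WT-only domains 9.32% overlapped H3K27ac at any time, and of the ΔTA-SOX9 domains in all 4 lists 37.3%. At W2 the ΔTA-only share minus the WT-only share of 4.69% was -2.98 points (-3.31 to -2.65), and the difference from the ΔHMG-only share of 2.02% was -0.304 points (-0.700 to 0.0598). H3K27ac of the cultured cells was not analysed here.

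Genes were described by the number of ΔTA-only domains in the gene and 10 kb on both sides. Of 21911 protein-coding genes, 6800 (31.0%) had at least 1, of which 4420 had exactly 1 and 270 had 5 or more. WT-only domains gave 8049 genes (36.7%). The share grew with the length of the gene, from 14.5% below 10 kb to 28.1% between 10 and 50 kb, 51.1% between 50 and 100 kb, 70.2% between 100 and 300 kb and 83.4% above. The leading genes were accordingly very long, and the counts of the gene lists below are read against these shares. The same shares for WT-only domains ran from 17.0% below 10 kb to 85.3% above 300 kb.

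*Gm20388* had 57 domains and *Fgfr2*, the receptor for keratinocyte growth factor, had 37, but the annotated models of these genes span 4435 and 2961 kb and take in many other genes. They were followed by *Fhit* (20 domains), *Macrod2* (19), *Camta1* (18) and *Dlg2* (17). *Dlgap2* and *Erc2* had 15 each, and *Myt1l* and *Slc24a3* had 14 each. *Dlg2* and *Dlgap2* encode scaffolds of the postsynaptic density, *Erc2* a protein of the presynaptic active zone and *Myt1l* a neuronal transcription factor. Per 100 kb the highest of these was *Myt1l*, with 3.37, whose domains ranged in fold from 2.78 to 7.29, and 5 of the 14 held the AP1 word. *Slc24a3*, a sodium, calcium and potassium exchanger, had 11 of its 14 domains on skin H3K4me1 at D0, and *Erc2* had 0 of 15.

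Among adhesion genes (hemidesmosome and desmosome), 15 of 24 had a ΔTA-only domain (62.5%) and 12 had a WT-only domain. The median length of these genes was 46.1 kb. Of all genes, 28.1% between 10 and 50 kb and 51.1% between 50 and 100 kb had a ΔTA-only domain. Between 100 and 300 kb it was 70.2%. A difference of the list from genes of like length was not tested. *Lamb3* and *Lama3*, which encode chains of laminin 332, the anchor of basal keratinocytes to the basement membrane, led with 9 and 6 domains. At *Lamb3* the folds ranged from 1.79 to 5.39, 2 of the 9 domains held the AP1 word and 5 overlapped skin H3K4me1 at D0. The strongest, at chr1:193288283-193289255, lay in an intron and overlapped skin H3K4me1 at W6 only. At *Lama3* the folds ranged from 2.15 to 2.70, 3 of the 6 touched an exon and none overlapped skin at D0.

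Of the keratin and differentiation genes, 3 of 17 had a domain (7 for WT-only domains), and their median length was 4.39 kb. This share of 17.6% is near the 14.5% of all genes below 10 kb. *Ivl* (involucrin, a cornified envelope protein) had 1, at chr3:92561401-92561851, with a fold of 4.75, both words and no skin overlap. *Tgm3*, an epidermal transglutaminase, had 2, both on skin H3K4me1 at D0. Of the epidermal transcription factors, 4 of 18 had a domain, as many as for WT-only domains, at a median length of 13.9 kb. This share of 22.2% stands beside 28.1% of all genes between 10 and 50 kb. *Trp63*, the master regulator of the epidermis, had 3, with folds from 2.03 to 3.63, and *Cebpa* had 2 next to its start site, with folds of 2.30 and 2.18.

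For the hair follicle stem cell factors the count was 10 of 20, led by *Tcf7l2* with 3, all on skin H3K4me1 at D0, and *Zeb2* with 2, none of them on skin. The WT-only domains reached 13 of these 20, and the median length was 104 kb. The ΔTA-only share of 50% was below the 70.2% of all genes between 100 and 300 kb. The WT-only share of 65% was likewise below the 79.5% of all genes of that length. The SOX family had 2 of 19, *Sox5* with 7 domains and *Sox9* with 1, against 8 of 19 for WT-only domains. Their median length was 4.83 kb, and 2 of 19 (10.5%) is near the 14.5% of all genes below 10 kb. The *Sox9* domain, at chr11:112794075-112794884, had a fold of 3.36, held neither word and did not overlap skin H3K4me1. It lay past the 3′ end of the gene and not in its exons, in an intron of *Gm11681*. The AP1 family had 7 of 18 (5 for WT-only domains) at a median length of 11.1 kb. Of all genes, 14.5% below 10 kb and 28.1% between 10 and 50 kb had a ΔTA-only domain. *Batf3* and *Atf3* led with 2 each, and none of these 4 domains held the AP1 word. The RUNX and GATA families had 8 of 10 (4 for WT-only domains) at a median length of 40.4 kb, where 28.1% of all genes between 10 and 50 kb had one. There were 2 each at *Cbfb*, the RUNX partner subunit, and *Gata4*.

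Each of the signalling lists and the list of SOX9 cofactors had fewer genes with a ΔTA-only domain than with a WT-only domain. The same order held over all protein-coding genes, at 31.0% against 36.7%, and the WT-only domains were more numerous, 23939 against 16536. By length, 28.1% of all genes between 10 and 50 kb and 51.1% of those between 50 and 100 kb had a ΔTA-only domain. The TGF-beta and BMP pathway had 14 of 27 (17 for WT-only domains) at a median length of 64.8 kb, with 7 domains at *Ltbp1*, which holds latent TGF-beta in the matrix, and 4 at the receptor gene *Bmpr1b*. Notch had 7 of 18 (9 for WT-only domains) at a median length of 23.1 kb, with 4 domains each at *Rbpj*, the DNA-binding effector, and the co-activator gene *Maml3*, and 3 of the 4 at *Rbpj* held the AP1 word. WNT had 11 of 35 (17 for WT-only domains) at a median length of 38.1 kb, led by the ligand gene *Wnt5b* and the receptor gene *Lgr6* with 3 each. The YAP and TEAD pathway had 7 of the 14 genes found in the annotation (10 for WT-only domains) at a median length of 70.7 kb, with 4 at *Stk3* and 3 at *Wwtr1* (TAZ), all 3 of the latter on skin H3K4me1 at D0. EGF receptors and ligands had 5 of 15 (9 for WT-only domains) at 77.8 kb, with 4 at *Nrg1* and 1 upstream of *Areg*. Hedgehog had 4 of 15 (7 for WT-only domains) at 65.3 kb, with 2 each at *Disp1* and *Gli2*. The SOX9 cofactors (MLL3/4, SWI/SNF and p300) had 12 of 21 (14 for WT-only domains), also at 77.8 kb. There were 5 at *Arid1b* and 3 at *Kmt2a*, which encodes MLL1 and not MLL3 or MLL4.

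Genes of other lineages carried domains as well. Neuronal genes had 16 of 20 (15 for WT-only domains), at a median length of 983 kb, with 17 at *Dlg2* and 10 at the glutamate receptor gene *Grin2b*. This share of 80% is near the 83.4% of all genes above 300 kb with a ΔTA-only domain. EMT and mesenchymal genes had 10 of 19 (6 for WT-only domains) at a median length of 36.7 kb, against 31.0% and 36.7% of all genes, with 4 at *Cdh2* (N-cadherin) and 3 at *Zeb1*, none of these 7 on skin H3K4me1 at any time. Immune genes had 7 of 14 (6 for WT-only domains) at a median length of 17.2 kb, with 2 at *Itgam* and 1 at *Cd8a*. Between 10 and 50 kb, 28.1% of all genes had a ΔTA-only domain. Endothelial, muscle and melanocyte genes had 6 of 18, with 4 at *Tek* and 2 at *Cdh5*, against 12 of 18 for WT-only domains, at a median length of 44.3 kb. Their ΔTA-only share of 33.3% is near the 31.0% of all genes. H3K4me1 near a gene does not give its expression, and no RNA from these cultures was used here.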

How the data were processed

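MINT-ChIP H3K4me1 lists of cultured EpdSCs and H3K4me1 and H3K27ac lists of sorted EpdSCs were used, 14 lists in all from a series of 38 samples. The authors' lists rest on barcode-sorted reads placed on GRCm38/mm10 by Bowtie2 (2.2.9 in the submitters' processing notes). Skewer clipped adapters before that step, and the replicate libraries were pooled (SAMtools 1.9) once Picard had cleared PCR copies. Each domain of the deposited culture lists has a score, a fold, which is a linear ratio, and p and q as −log10 values. The deposited skin H3K4me1 lists give a p-value per interval, and the deposited H3K27ac lists the same columns as the culture lists. The methods name MACS2 for H3K27ac and epic2 for H3K4me1, the processing notes list MACS2 2.1.1 and SICER 0.0.36, and which of these made the culture lists is not given in the sources used here. Conditions of the culture lists were read from the list names, and each list pools both MNase digests. A further 14 files hold barcodes and were not used here.

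Intervals were handled in Python 3.11.15 with pandas 2.3.3, NumPy 2.4.6 and SciPy 1.17.1. Overlap meant at least 1 bp on 21 chromosomes, and 30 intervals elsewhere were left out. Sequences came from RefSeq GRCm38.p6, in which no interval ran past a chromosome end, and genes from the basic set of GENCODE M21 (77201 start sites). Words were searched on both strands in the central 500 bp of each domain, as spelled out in the text, and a match is a description and not a bound site. The procedure was tested on simulated intervals and sequences. The members and gene lists were chosen with earlier results of these data known. Named domains were the 12 with the highest fold, the 5 widest and the 5 strongest with skin overlap at W2, W6 and W12 and not D0. The sequence of the domain with the highest fold is not reported here. Named genes were the 10 with the most domains and the 2 leading genes of each list. Where a list named its genes by older symbols, 2 were not found. Alternatives covered the overlap rule, distance, score, q, list length, sex chromosomes, word windows and gene flanks.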

Additional observations from a re-analysis of the deposited data

How the results depend on the processing

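Of 58 values recomputed under another setting, 25 stayed within the interval of the value reported (for counts, within 1.5 times) and 33 moved; 2 of the 58, which left out windows at least 50% repeat-masked, were chosen after seeing the data and stayed within it. Requiring 50% overlap gave a median fold of 3.14, 87.2% distal, 37.8% on skin H3K4me1 and 5.86% on skin H3K27ac. A distance of at least 1000 bp to the other lists gave 3.18, 89.0%, 32.8% and 4.43%. Only domains above the median score gave 2570 domains, a median fold of 4.48, 90.04% distal, 32.3% on H3K4me1, 3.54% on H3K27ac and 30.8% with the AP1 word. Those with q at most 0.01 numbered 10592, with 3.49, 88.9%, 34.2%, 4.47% and 27.2%. Lists of equal length gave a median fold of 3.42 and the AP1 word in 26.6%. Distal limits of 1000 and 10000 bp gave 94.0% and 64.0%. Skin overlap by midpoint gave 33.4% (H3K4me1) and 3.08% (H3K27ac), and by 50% of the shorter interval 33.5% and 3.79%. A window of 1000 bp gave the AP1 word in 38.1% and SOX words in 77.5%, TGANTCA gave 34.7% and AACAAT alone 22.9%. A gene flank of 50 kb gave 12641 genes. With lists of equal length the AP1 shares of the WT-only, ΔHMG-only and no-DOX-only domains were 10.5%, 17.7% and 15.3%.

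No paired analysis was possible because each condition has 1 pooled list, and no replicate was left out for the same reason. The depth of the culture lists is unknown. With the 4 lists at equal length, 12565 domains were ΔTA-only by the same rule, against 16536 as deposited. The part of weak calls and of the transduced line in these domains was not tested.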
